A study of Homo sapiens with 6 samples.

Results

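The 45 genes described here encode the folding and quality control machinery of the endoplasmic reticulum (ER): chaperones, oxidative folding enzymes, ER-associated degradation (ERAD) factors, the protein-conducting channel, and the sensors and transcription factors of the unfolded protein response (UPR). They were chosen by name, and all 45 were found by Ensembl identifier among the 61496 features of the series. U251, an established human glioma cell line, was either left untreated (control, 3 libraries) or exposed to the volatile anesthetic sevoflurane (Sev) as a gas for 2 h (Sev, 3 libraries). All libraries came from the same line in the same medium, with no genetic change in either group. The labels list Sev at 1.7%, 3.4% and 5.1% without assigning one to a library, and the study's legend gives 5.1%. The study states for its quantitative data in general that experiments were independent, and nothing says so of these libraries or ties them to separate cultures. The p-values therefore measure the spread between these libraries, which may be technical.

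The ER lumen is where secreted and membrane proteins fold. The Hsp70 chaperone BiP, encoded by HSPA5, binds unfolded chains in cycles set by J proteins and nucleotide exchange factors, disulfide bonds are formed by the protein disulfide isomerases, and glycoproteins are held by the lectins calnexin and calreticulin. Chains that do not fold are passed back to the cytosol and degraded (ERAD). When unfolded chains accumulate, the sensors IRE1α (ERN1), ATF6 and PERK (EIF2AK3) start the UPR. IRE1α splices the XBP1 mRNA, ATF6 is cut to release a transcription factor, and PERK phosphorylates eIF2α, which slows translation and favours that of ATF4. Spliced XBP1 and cleaved ATF6 act on promoters that carry the ER stress response elements (ERSE and ERSE-II) or the UPR element (UPRE).

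The libraries held 38624292 to 46318311 counts. They showed the glial markers VIM at 828 to 1027 FPKM, NES at 192 to 232 and GFAP at 14.9 to 28.2. The leukocyte markers CD3E and PTPRC and the epithelial markers EPCAM and CDH1 were at most 0.033 in every library. Another leukocyte marker, CD14, was higher, at 0.645 to 2.73 FPKM. The endothelial markers PECAM1, CDH5 and VWF were at 0.0553 to 0.622 FPKM, and the neuronal markers were at 0.404 to 0.697 for SNAP25, 0.0849 to 0.156 for RBFOX3 and 1.73 to 2.50 for SYT1. Some markers moved with the groups, with SOX2 at 93.8 to 101.5 FPKM in control and 51.9 to 54.2 in Sev, S100B at 8.46 to 13.7 and 4.26 to 4.49, CD44 at 31.7 to 34.1 and 56.7 to 60.9, CD14 at 0.645 to 0.712 and 1.84 to 2.73, SYT1 at 1.73 to 1.87 and 2.29 to 2.50, and PECAM1 at 0.0553 to 0.105 and 0.115 to 0.139, and their part in the results was not tested. The 45 ER genes took 259608 to 315110 counts in a library, and the libraries of a group differed by far more than counting error. Levels of one gene are given as CPM, the counts of the gene relative to the TMM-scaled library total, and levels of different genes as FPKM, the deposited values per transcript length. Differences are log2 fold changes of Sev over control with their standard error (SE), from the quasi-likelihood F test of edgeR, and p-values were adjusted by Benjamini-Hochberg over all 27514 features tested. A gene was called at an adjusted p under 0.05, and the words rose and fell are kept for such genes. As these are bulk samples, a change in RNA per cell and a change in the share of cells that hold the RNA cannot be told apart.

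The UPR elements found in the promoters are shown first, since they are the sequences on which spliced XBP1 and cleaved ATF6 are known to act. An ERSE or ERSE-II was found in 11 of the genes. Of the 45 genes, 42 had windows in the RefSeq promoter table of GRCh38.p14, each from 250 bases before to 50 bases after the annotated start, and DERL1, DERL3 and PDIA3 were not matched. ERSE was searched as CCAAT, 9 bases of any kind, then CCACG, on both strands. It occurred in 8 of the 42 ER genes (19.0%) and in 25 of all 27305 genes of the table (0.0916%). The sites are written in the orientation of the motif, with the fixed bases in capitals and the free bases in lower case.
HSPA5 (chr9:125241391-125241409, minus strand): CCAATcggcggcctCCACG
HSP90B1, farther site (chr12:103930216-103930234, plus strand): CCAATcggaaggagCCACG
HSP90B1, nearer site (chr12:103930321-103930339, minus strand): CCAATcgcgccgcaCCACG
PDIA6 (chr2:10812853-10812871, minus strand): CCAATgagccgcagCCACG
XBP1 (chr22:28800603-28800621, minus strand): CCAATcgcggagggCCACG
CALR (chr19:12938384-12938402, minus strand): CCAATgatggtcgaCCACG
CANX (chr5:179698778-179698796, plus strand): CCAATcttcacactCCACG
CRELD2 (chr22:49918554-49918572, minus strand): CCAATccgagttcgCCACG
ERO1B (chr1:236282183-236282201, plus strand): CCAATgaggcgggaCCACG

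ERSE-II was searched as ATTGG, 1 free base, then CCACG. It occurred in 3 of the 42 ER genes (7.14%) and in 19 of all genes (0.0696%).
HERPUD1 (chr16:56932025-56932035, plus strand): ATTGGgCCACG
HYOU1, nearer site (chr11:119057274-119057284, plus strand): ATTGGaCCACG
HYOU1, farther site (chr11:119057380-119057390, plus strand): ATTGGaCCACG
SDF2L1 (chr22:21642114-21642124, minus strand): ATTGGtCCACG

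The UPRE core, TGACGTGG on either strand, was found in DNAJC10, HYOU1, SEC62 and SSR3, which is 9.52% of the 42 against 0.927% of all genes. In HYOU1 it overlapped the farther ERSE-II site. The shorter parts were common everywhere: CCACG alone was in 73.8% of the ER genes and 42.1% of all genes, and CCAAT alone in 76.2% and 39.7%. Only exact matches were searched, so an element that differs at a fixed base or lies outside the window was not counted. The matches are descriptions of these windows and do not show that a factor was bound.

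The promoters of 3 genes are given over the whole 250 bases before the start, to show the elements of genes with different responses: HSPA5 and HERPUD1, which rose, and CALR, which was not called. All are on the strand of the gene, with the fixed bases of the ERSE or ERSE-II in capitals. In CALR the element lies on the other strand and therefore reads in reverse complement.
HSPA5 (chr9:125241344-125241593, minus strand): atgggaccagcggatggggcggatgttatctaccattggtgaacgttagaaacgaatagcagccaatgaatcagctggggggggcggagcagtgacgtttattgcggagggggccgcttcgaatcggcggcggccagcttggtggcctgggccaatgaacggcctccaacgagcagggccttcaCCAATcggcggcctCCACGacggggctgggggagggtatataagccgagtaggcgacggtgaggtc
HERPUD1 (chr16:56931892-56932141, plus strand): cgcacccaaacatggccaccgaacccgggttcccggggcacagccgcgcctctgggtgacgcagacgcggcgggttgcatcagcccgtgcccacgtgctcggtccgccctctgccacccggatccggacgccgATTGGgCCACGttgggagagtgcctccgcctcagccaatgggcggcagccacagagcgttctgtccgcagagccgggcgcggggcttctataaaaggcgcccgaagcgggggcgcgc
CALR (chr19:12938359-12938608, plus strand): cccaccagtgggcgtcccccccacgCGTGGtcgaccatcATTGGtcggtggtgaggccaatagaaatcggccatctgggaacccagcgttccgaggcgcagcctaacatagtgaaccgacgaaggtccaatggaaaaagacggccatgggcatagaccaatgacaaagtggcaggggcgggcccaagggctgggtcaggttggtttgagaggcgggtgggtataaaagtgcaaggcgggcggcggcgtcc

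**Figure D1:**
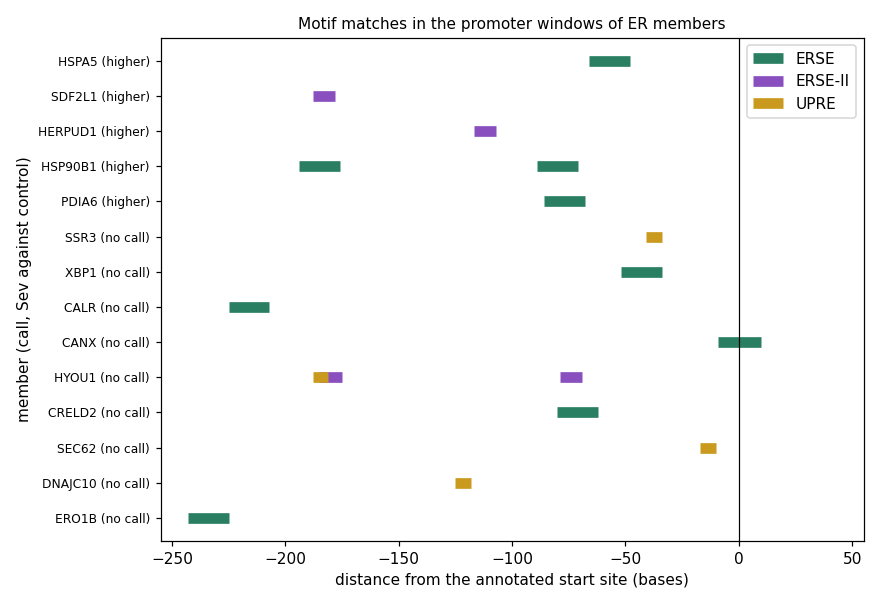
Positions of the ERSE, ERSE-II and UPRE matches in the promoter windows, as distance from the annotated start site in bases, with 1 line for each ER gene that holds a match and its call in parentheses. The ERSE of HSPA5 spans 66 to 48 bases before the start and that of CALR 225 to 207 bases before it, and genes that rose and genes without a call both carry elements.

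In Sev-treated cells, 15 of the 44 ER genes that passed the expression filter rose and 1 fell, while 28 had no call. The shares were 34.1% higher and 2.27% lower, beside 22.1% higher and 21.5% lower among all tested features, and 25.0% and 21.0% among tested protein-coding genes. The genes that rose were led by BiP, and they included its J proteins DNAJC3 and DNAJB9, the sensor ERN1, the ERAD factor HERPUD1 and the channel subunit SEC61A1. The changes were moderate: the log2 fold changes of the 16 called genes ran from −0.45 to 0.82. None passed the study's own threshold, a log2 fold change over 1 in size with an unadjusted p under 0.05, which 11.4% of all tested features passed upward and 12.0% downward (9.07% and 7.62% of protein-coding genes).

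The median log2 fold change of the 44 was 0.087, beside −0.0056 over all tested features and 0.038 over protein-coding genes. The libraries of the groups did not overlap for 23 of the ER genes, with 18 higher in Sev and 5 lower, whereas 28.3% of all features were apart upward and 28.2% downward (31.2% and 26.6% of protein-coding genes). The split depended on the scaling. With library size in place of TMM the log2 fold changes of all features dropped by 0.14 at the median, and the ER genes then gave 6 higher and 6 lower calls, beside 17.0% and 27.3% of all features.

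**Figure D2:**
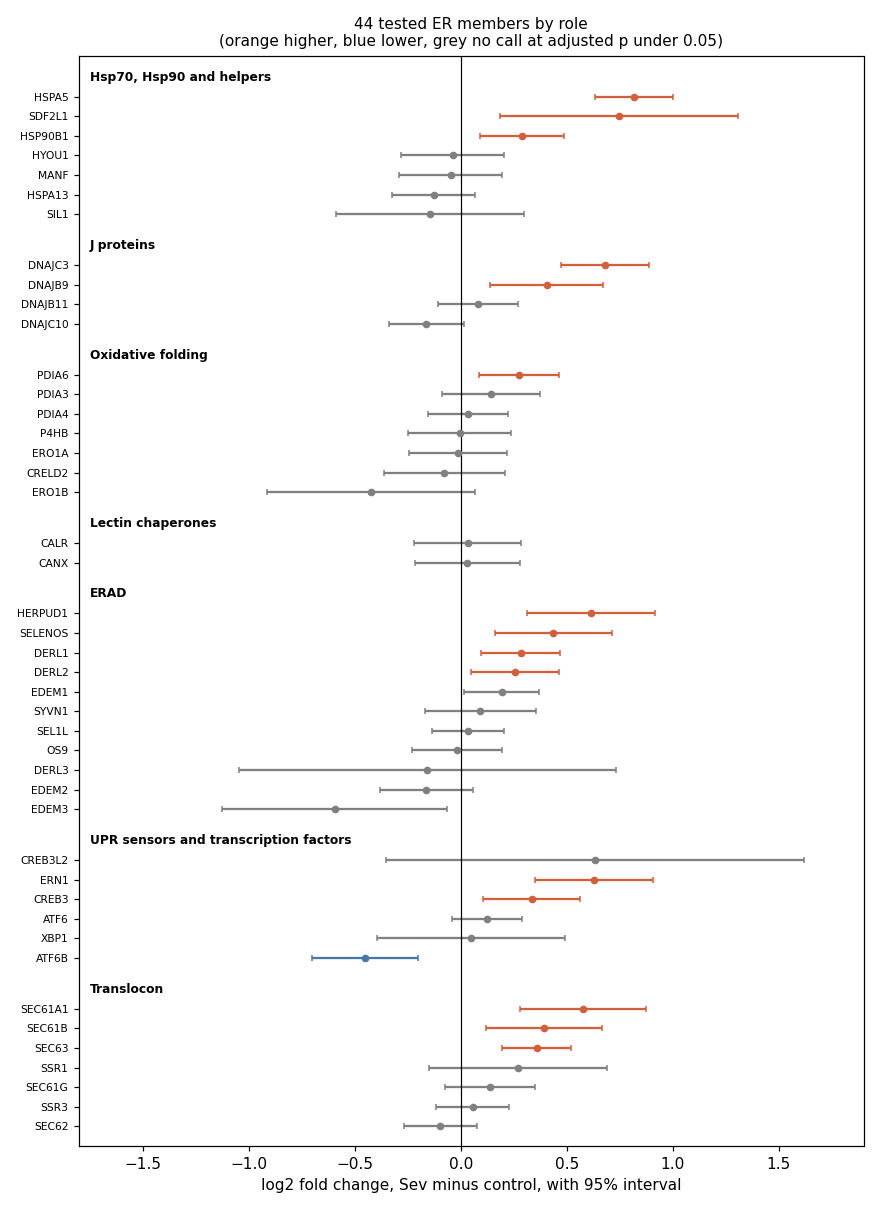
Log2 fold change of Sev over control for the 44 tested ER genes, grouped by role, with 95% intervals as bars. Orange marks the 15 genes that rose, blue the 1 that fell (ATF6B) and grey the 28 without a call, and HSPA5 has the highest value at 0.82.

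Among the 7 Hsp70 and Hsp90 chaperones and their helpers, 3 rose and none fell. Of all tested features 22.1% rose and 21.5% fell, and the counts of the role groups below stand beside the same shares. HSPA5, located at chr9:125234853-125241330 on the minus strand in GRCh38, had 407, 447 and 431 CPM in the control libraries and 742, 728 and 794 CPM in the Sev libraries. The lowest Sev library was far above the highest control library. The means were 428 ± 20.1 and 755 ± 34.6 CPM (SD, n = 3 each), a log2 fold change of 0.82 (SE 0.080, 95% interval 0.63 to 1.0), or 1.76-fold, with an adjusted p of 0.000298. The call held under all 15 alternative settings, with log2 fold changes from 0.67 to 0.85. BiP also took a larger part of the transcripts of the set: 6.49% to 6.64% of the counts of the 45 genes in control and 9.59% to 10.9% in Sev, a share that needs no scaling between libraries.

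SDF2L1, a lumenal partner of ER J proteins, stood at 3.52, 5.75 and 6.53 CPM in control and 7.35, 10.1 and 9.11 CPM in Sev. The closest libraries of the groups were 6.53 and 7.35 CPM. Its log2 fold change was 0.75 (SE 0.24, adjusted p = 0.0384). HSP90B1, which encodes the ER Hsp90 GRP94, had 381, 321 and 364 CPM in control and 432, 428 and 442 CPM in Sev. Its rise was smaller than that of HSPA5, with a log2 fold change of 0.29 (SE 0.086, adjusted p = 0.0277). The remaining helpers had no call: the nucleotide exchange factors HYOU1 (log2 fold change −0.04) and SIL1 (−0.14), the Hsp70 family gene HSPA13 (−0.13) and the secreted ER protein MANF (−0.05). SIL1 had 15.9 CPM in Sev library 1, under the 23.7 to 26.8 CPM of the other 5 libraries. It lies opposite MATR3 and SNHG4, which had counts equal to 446% and 91.4% of those of SIL1 and no call. Also opposite SIL1, SNORA74A (21.4%) rose (log2 fold change 0.71, adjusted p = 0.0456). AC011405.1 (10.3%), again opposite, fell (−0.83, adjusted p = 0.0121).

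Of the 4 genes grouped as J proteins, which stimulate the ATPase of BiP, 2 rose. A further J protein, SEC63, is counted with the translocon below. DNAJC3, also known as P58IPK, had 63.1, 72.1 and 70.3 CPM in control and 108, 103 and 118 CPM in Sev. All Sev libraries were above 100 CPM and all control libraries under 75. The log2 fold change was 0.68 (SE 0.090), or 1.6-fold (adjusted p = 0.000954), and the call held under all 15 alternatives. DNAJB9, encoding ERdj4, had 11.5, 9.97 and 10.1 CPM in control and 14.2, 13.7 and 13.7 CPM in Sev. The groups were apart, with a log2 fold change of 0.40 (SE 0.12, adjusted p = 0.0235). DNAJB9 lies opposite PNPLA8 and THAP5, which had more counts than DNAJB9 and no call of their own. The strand setting of the counting is not given, so reads of overlapping genes may not be told apart here and in the other cases named. DNAJB11 (log2 fold change 0.08) and the disulfide reductase DNAJC10 (−0.16) had no call, and the latter was lower in every Sev library than in any control library. DNAJB11 lies opposite TBCCD1, which had counts equal to 24.3% of those of DNAJB11 and fell (log2 fold change −0.90, adjusted p = 0.00049).

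**Figure D3:**
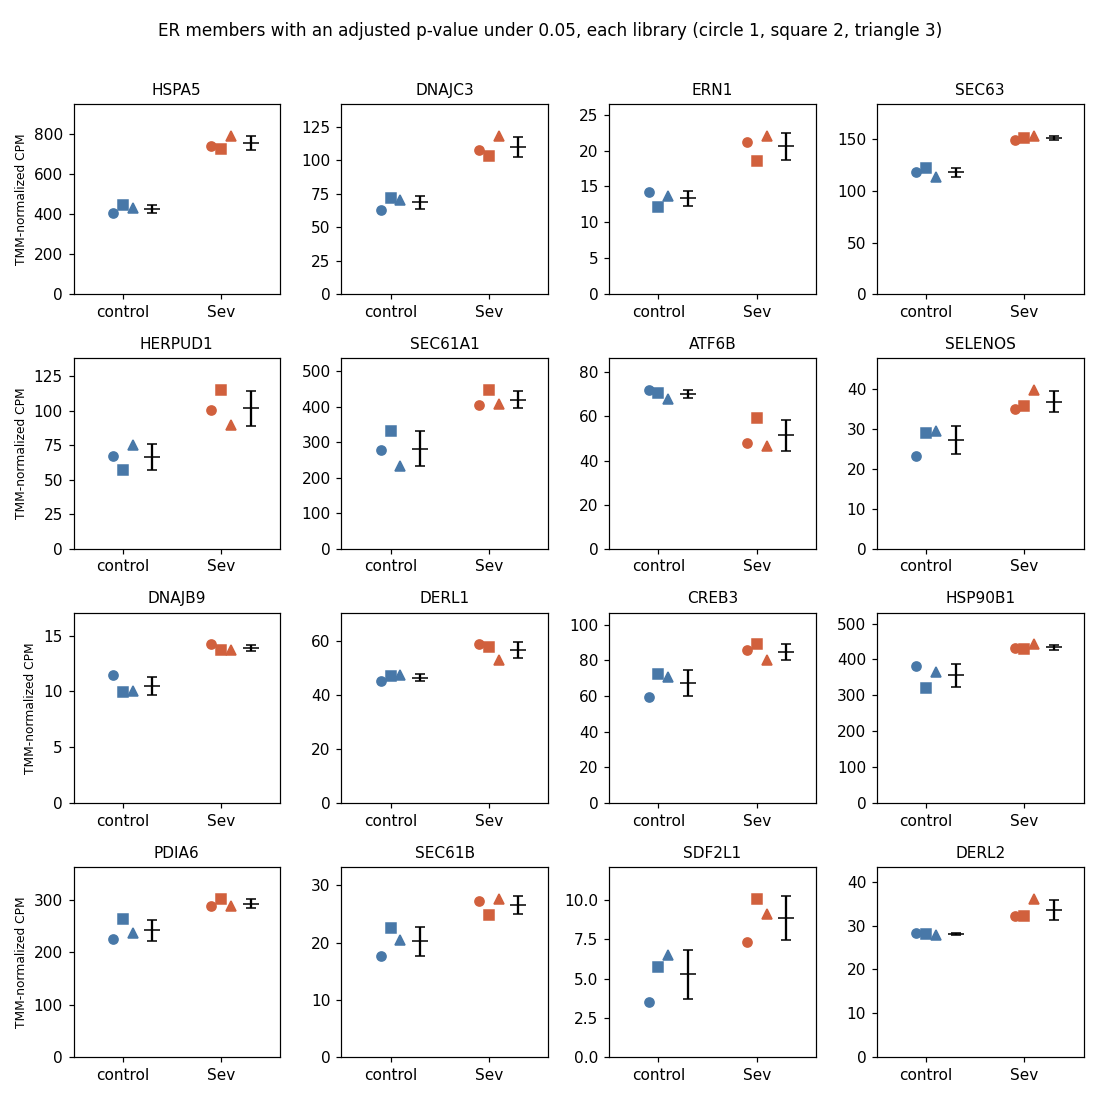
TMM-normalized CPM of the 16 called ER genes in each library, with control at the left and Sev at the right of each panel, circles, squares and triangles for replicates 1, 2 and 3, and the mean with its SD. The Sev libraries lie above all control libraries in the 15 genes that rose and below them in ATF6B.

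In oxidative folding, 1 of 7 genes rose. PDIA6, a protein disulfide isomerase, had 225, 263 and 237 CPM in control and 287, 302 and 287 CPM in Sev. Its groups did not overlap, and the log2 fold change was 0.27 (SE 0.082, adjusted p = 0.0285). The other isomerases differed little, with log2 fold changes of −0.00 for P4HB, 0.14 for PDIA3 and 0.03 for PDIA4. The oxidase ERO1A stood at −0.01, its paralog ERO1B at −0.42 (95% interval −0.91 to 0.07) and CRELD2 at −0.08, and none was called. ERO1B lies opposite GPR137B, which had counts equal to 102% of those of ERO1B and fell (log2 fold change −0.82, adjusted p = 0.00143), and CRELD2 lies opposite ALG12, with 156% and no call.

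Neither lectin chaperone was called. CALR, encoding calreticulin, had 736, 848 and 799 CPM in control and 827, 899 and 709 CPM in Sev, and CANX, encoding calnexin, 787, 994 and 960.0 CPM against 899.9, 988 and 913 CPM. In both genes the groups overlapped. The log2 fold changes were 0.03 for both (SE 0.11 each), with 95% intervals from −0.22 to 0.28 and adjusted p of 0.832 and 0.834, so that a change of the size seen in HSPA5 lies outside these intervals. CALR and CANX carry an ERSE, as HSPA5 does.

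Of the 11 ERAD genes, 4 rose and none fell. HERPUD1, a membrane factor that assembles the retrotranslocation complex, had 67.1, 57.1 and 75.5 CPM in control and 100.3, 115 and 90.0 CPM in Sev. The libraries varied within each group, and the groups still did not overlap. The log2 fold change was 0.61 (SE 0.13), or 1.53-fold (adjusted p = 0.00716), and it was called in all 15 alternatives. SELENOS, a selenoprotein of the same complex, had 23.2, 29 and 29.5 CPM in control and 35.0, 35.7 and 39.8 CPM in Sev (log2 fold change 0.44, SE 0.12, adjusted p = 0.02).

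The derlins, membrane proteins of the retrotranslocation channel, gave smaller differences. DERL1 had 45, 46.8 and 47.3 CPM in control and 58.7, 57.6 and 53.0 CPM in Sev (log2 fold change 0.28, SE 0.081, adjusted p = 0.0238). DERL2 had 28.3, 28.1 and 27.9 CPM against 32.3, 32.2 and 36.1 CPM, a log2 fold change of 0.26 (SE 0.090) at the edge of the call (adjusted p = 0.0498). DERL1 lies opposite TBC1D31, which had counts equal to 32.2% of those of DERL1 and fell (log2 fold change −1.02, adjusted p = 0.000836), and DERL2 opposite MIS12, with 49.8% and no call. DERL2 was called in 2 of the 15 alternatives. DERL3 was low, at 0.557 to 1.44 CPM over the 6 libraries, and no difference was detectable at this depth (95% interval −1.05 to 0.73). It lies opposite SMARCB1, which had counts equal to 6729% of those of DERL3 and no call.

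The core ubiquitin ligase of ERAD was not called. Its adaptor SEL1L had 112, 116 and 119 CPM in control and 114, 116 and 124 CPM in Sev (log2 fold change 0.03, SE 0.074, 95% interval −0.14 to 0.20, adjusted p = 0.743). The ligase SYVN1, or HRD1, had 38.8, 34.7 and 32.3 CPM against 37.2, 41.7 and 33.9 CPM (log2 fold change 0.09, SE 0.11, 95% interval −0.17 to 0.35, adjusted p = 0.54). Both overlapped between the groups. SYVN1 overlaps FAU on the same strand in the annotation. FAU had counts equal to 221% of those of SYVN1 and rose (log2 fold change 0.61, adjusted p = 0.00213). SYVN1 also lies opposite MRPL49, with 75.3% and no call. The part of these overlaps in the SYVN1 result was not tested.

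The mannosidase-like EDEM genes, which mark misfolded glycoproteins for ERAD, pointed in different directions. EDEM1 was higher in each Sev library (140 to 153 CPM) than in any control library (123 to 134 CPM), with a log2 fold change of 0.19 and an adjusted p of 0.0735. EDEM2 (log2 fold change −0.16) and EDEM3 (−0.60, 95% interval −1.12 to −0.07, adjusted p = 0.0672) were lower in every Sev library, without a call. EDEM3 had 56.5 CPM in control library 2 beside 30.8 and 33.0 CPM in the other controls, and its log2 fold change ran from −0.76 without control library 1 (adjusted p = 0.0426) to −0.27 without control library 2 (adjusted p = 0.137). The lectin OS9 had a log2 fold change of −0.02.

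Among the UPR sensors and ER-bound or UPR transcription factors, 2 of the 6 tested genes rose and 1 fell. ERN1, which encodes IRE1α and lies at chr17:64039142-64130819 on the minus strand, had 14.2, 12.1 and 13.7 CPM in control and 21.2, 18.5 and 22.1 CPM in Sev. The groups were apart, with a log2 fold change of 0.63 (SE 0.12), or 1.55-fold (adjusted p = 0.0046). The call held in each fit with a library left out, and was lost in the 3 settings on FPKM. XBP1, the mRNA that IRE1α splices, had 27.3, 22.9 and 20.8 CPM in control and 31.6, 19.4 and 22.4 CPM in Sev. The Sev libraries held both the highest and the lowest value, and the log2 fold change was 0.05 (SE 0.19, 95% interval −0.40 to 0.49, adjusted p = 0.861). Counts per gene do not separate the spliced from the unspliced form, so splicing was not analysed here. The processed copy XBP1P1 held 7.27% of the counts of XBP1 and XBP1P1 together.

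ATF6, the sensor that is itself a transcription factor, had 169.8, 162 and 165 CPM in control and 184, 172 and 186 CPM in Sev. Its groups did not overlap, but the difference was small and not called (log2 fold change 0.13, SE 0.071, adjusted p = 0.19). Its paralog ATF6B was the single ER gene that fell, from 72.1, 70.5 and 68.1 CPM to 48.1, 59.5 and 46.5 CPM. The log2 fold change was −0.45 (SE 0.11, 95% interval −0.70 to −0.20), 1.37-fold lower (adjusted p = 0.012). Without Sev library 1 the adjusted p was 0.0501. In the annotation ATF6B overlaps TNXB on the same strand. TNXB had counts equal to 35.9% of those of ATF6B and rose (log2 fold change 1.97, adjusted p = 0.000302), and the part of the overlap in the ATF6B result was not tested.

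The CREB3 family members are ER-bound transcription factors cut like ATF6. CREB3 had 59.2, 72.2 and 70.5 CPM in control and 85.5, 89.0 and 80.0 CPM in Sev, apart between the groups (log2 fold change 0.33, SE 0.099, adjusted p = 0.0273). It lies opposite TLN1 and GBA2 in part. TLN1 had counts equal to 1504% of those of CREB3 and no call, and GBA2 had 125% and fell (log2 fold change −0.60, adjusted p = 0.0102). CREB3L2 had 85.2 CPM in control library 1, 29 and 25.1 CPM in the other controls, and 66.0, 84.5 and 65.5 CPM in Sev. That 1 control library was as high as the Sev libraries, and no call was made (log2 fold change 0.63, SE 0.43, adjusted p = 0.262). Without it the log2 fold change was 1.40 with an adjusted p of 0.00185. CREB3L1 had 5, 4 and 3 counts in control and 3, 0 and 25 counts in Sev, and it did not pass the filter on low counts.

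Of the 7 translocon genes, whose products carry nascent chains into the ER, 3 rose. SEC61A1, the channel-forming subunit, at chr3:128051641-128071683 on the plus strand, had 279, 332 and 233 CPM in control and 404, 448 and 408 CPM in Sev. The control libraries were spread more than the Sev libraries, and the groups did not overlap. The log2 fold change was 0.58 (SE 0.13), or 1.49-fold (adjusted p = 0.00876), called in all 15 alternatives. SEC61A1 lies opposite RUVBL1, which had counts equal to 10.7% of those of SEC61A1 and no call. SEC63, a J protein of the channel, had 119, 122 and 113 CPM in control and 149, 151 and 153 CPM in Sev. Both groups were tight, with a log2 fold change of 0.36 (SE 0.070, adjusted p = 0.00501), also called in all 15. SEC61B, a small subunit, had 17.6, 22.5 and 20.4 CPM against 27.2, 24.8 and 27.7 CPM (log2 fold change 0.39, SE 0.12, adjusted p = 0.0286).

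The third subunit SEC61G (log2 fold change 0.14), SEC62 (−0.10) and the translocon-associated proteins SSR1 (0.27) and SSR3 (0.06) were not called. SSR1 had 240.4 CPM in Sev library 1 beside 141 to 174 CPM in the other 5 libraries.

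The calls differed in how far they held. Of the 16, HSPA5, DNAJC3, HERPUD1, SEC61A1 and SEC63 were called under all 15 alternatives, and all 16 kept their direction in each of them. Leaving out each library in turn kept 6 calls, those 5 and ERN1, while the other 10 were lost in at least 1 of the 6 fits. Over all features, these 6 fits called 16.7% to 20% higher and 15.6% to 19.3% lower, beside 22.1% and 21.5% with all libraries. Without Sev library 1, 8 genes were higher and none lower, and ATF6B, CREB3, DERL1, DERL2, DNAJB9, HSP90B1, PDIA6 and SEC61B lost the call at adjusted p from 0.0501 to 0.094. Without control library 3, 8 were higher, and the same genes but ATF6B lost the call at 0.0603 to 0.144. Without control library 1, 9 were higher and 2 lower, CREB3, DERL1, DERL2, PDIA6, SDF2L1, SEC61B and SELENOS were lost at 0.053 to 0.106, and CREB3L2 and EDEM3 were gained. Without Sev library 3, 9 were higher, and DERL2, HSP90B1, PDIA6, SDF2L1, SEC61B and SELENOS were lost at 0.0555 to 0.136. Without control library 2, 10 were higher, and DERL1, DERL2, DNAJB9, HSP90B1 and SDF2L1 were lost at 0.0609 to 0.111. Without Sev library 2, 12 were higher, CREB3, DERL2, PDIA6 and SDF2L1 were lost at 0.053 to 0.0997, and EDEM1 was gained. With library size in place of TMM, CREB3, DERL1, DERL2, DNAJB9, HSP90B1, PDIA6, SDF2L1, SEC61B and SELENOS lost the call, with adjusted p of 0.0684 to 0.396. Of the 28 genes without a call, 22 had a 95% interval within 0.5 of zero on the log2 scale, and 17 changed sign in at least 1 alternative. Of the 11 genes with an ERSE or ERSE-II, 5 rose and 6 had no call (median log2 fold change 0.047), and of the 30 tested genes whose windows held neither, 9 rose, 1 fell and 20 had no call (median 0.087). HERPUD1 and SDF2L1, both with an ERSE-II, rose, and HYOU1 with 2 did not. These groups rest on exact matches in the windows, so a gene in the second may still carry a variant element. The groups are described and were not tested against each other.

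Per transcript length, the ER genes spanned a wide range. CALR was the highest in control at 249 ± 12.7 FPKM, followed by P4HB at 115, CANX at 112, HSPA5 at 92.8 ± 2.48 and PDIA4 at 84.1 FPKM (means, n = 3). P4HB and CANX overlapped, as did 29 of the 44 neighbouring pairs in the control order. In Sev, HSPA5 was the second at 148 ± 11.7 FPKM, above the P4HB range of 97.2 to 109.7, and CALR remained the first at 231 ± 19.8 FPKM. The 5 highest genes held 53.5% of the summed FPKM of the 45 in control and 52.6% in Sev. At the other end of the order, ERN1 had 1.04 ± 0.108 FPKM in control and 1.46 ± 0.180 in Sev, DERL3 0.207 and 0.161, and CREB3L1 0.0158 and 0.0437.

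**Figure D4:**
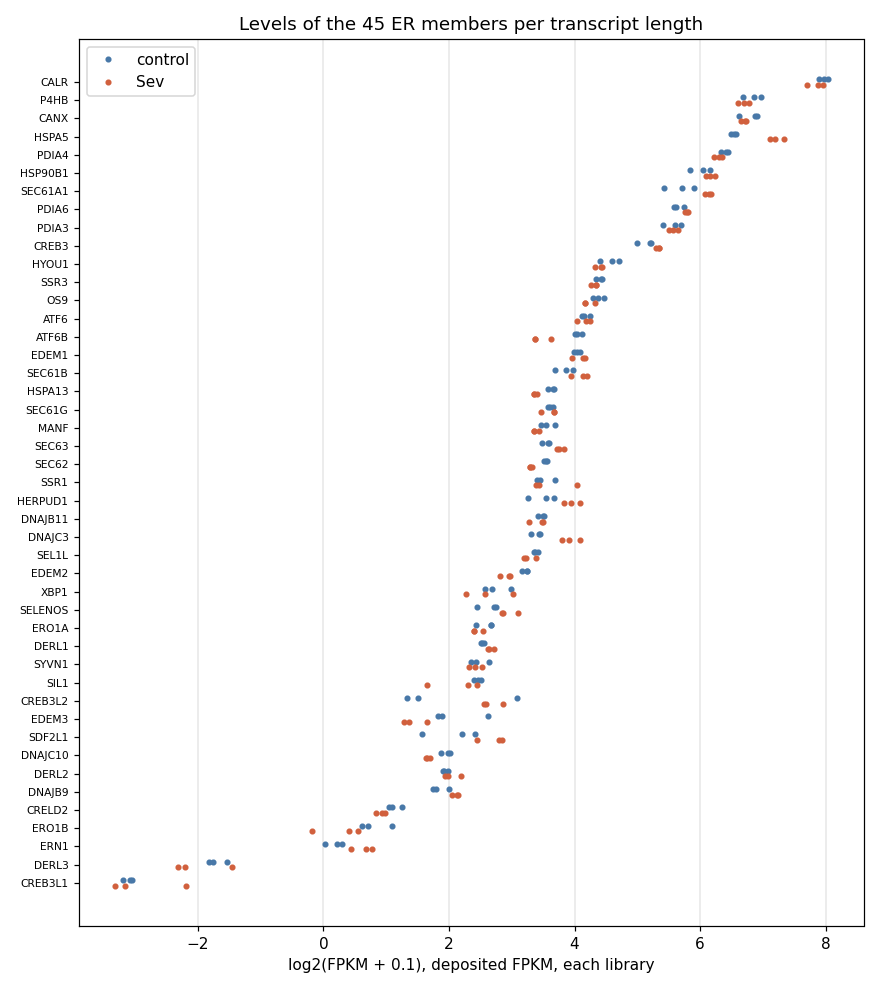
Level of each of the 45 ER genes per transcript length, as log2(FPKM + 0.1) of the deposited FPKM in each library, ordered by the control mean. CALR is the highest in both groups, and the Sev points of HSPA5 (138 to 161 FPKM) lie clear of its control points (90.2 to 95.2 FPKM).

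Other genes of the ER and the UPR gave the surroundings of these results. Of 99 that were tested, 32 rose and 7 fell (32.3% and 7.07%, beside 22.1% and 21.5% of all features), with a median log2 fold change of 0.15. With library size in place of TMM, 24 of them were called higher and 17 lower, again beside 17.0% and 27.3% of all features.

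The list named PERK branch held the larger differences, with 8 of 10 genes higher and none lower. The name is that of the list, as PERK activity was not measured. The list was chosen with earlier results of these data known. EIF2AK3, the sensor, had 34.8, 36.2 and 34.2 CPM in control and 36.1, 38.6 and 27.0 CPM in Sev, and was not called (log2 fold change −0.05, SE 0.14, adjusted p = 0.797). Its substrate EIF2S1, which encodes eIF2α, had 67.9, 84.4 and 75.7 CPM against 133, 118 and 133 CPM (log2 fold change 0.75, SE 0.10, adjusted p = 0.00109). The groups overlapped for EIF2AK3 and were apart for EIF2S1.

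The transcription factor ATF4 had 187, 173 and 177 CPM in control and 372, 411 and 349 CPM in Sev (log2 fold change 1.08, SE 0.086, adjusted p = 0.000147). DDIT3, encoding CHOP, went from 12, 15.1 and 14.8 to 29.1, 28.2 and 30.6 CPM (log2 fold change 1.07, SE 0.12, adjusted p = 0.00049). CHAC1, a glutathione-degrading enzyme downstream of ATF4, had 7.47, 7.72 and 10.3 CPM against 34.5, 30.4 and 35.1 CPM (log2 fold change 1.97, SE 0.15, adjusted p = 0.00013). These log2 fold changes were above those of the 44 tested ER genes in the fit with all 6 libraries.

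SESN2, a stress-induced regulator of mTORC1, had a log2 fold change of 1.31 (SE 0.15, adjusted p = 0.000559), the eIF2α phosphatase subunit PPP1R15A 0.78 (SE 0.17, adjusted p = 0.00867), ATF3 0.71 (SE 0.077, adjusted p = 0.000435) and TRIB3 0.64 (SE 0.15, adjusted p = 0.0108). ASNS, the asparagine synthetase and also an ATF4 target, had 30.6, 34.6 and 37.1 CPM in control and 34.0, 37.8 and 40.9 CPM in Sev, which overlap (log2 fold change 0.14, SE 0.11, adjusted p = 0.344).

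The other ERAD genes gave 11 higher and 2 lower of 21 (52.4% and 9.52%, beside 22.1% and 21.5% of all features). UFD1, a cofactor of the segregase p97 that extracts ERAD substrates, had 63.5, 66.6 and 64.5 CPM in control and 160.2, 149 and 157 CPM in Sev. The log2 fold change was 1.26 (SE 0.073, adjusted p = 5.78e-05). Its partner NPLOC4 rose by 0.61 (SE 0.070, adjusted p = 0.000546). UBAC2 fell, from 33.4, 34.7 and 29.1 CPM to 14.9, 22.1 and 16.4 CPM (log2 fold change −0.86, SE 0.16, adjusted p = 0.00403), and so did ERLIN2 (−0.33, SE 0.080, adjusted p = 0.0118).

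The remaining lists had fewer calls by number, though not always by share. Over all tested features the shares were 22.1% higher and 21.5% lower. The glycan trimming and folding sensor genes gave 2 lower of 6, both of them glucosyltransferases that check glycoprotein folding: UGGT2 (log2 fold change −0.41, adjusted p = 0.00427) and UGGT1 (−0.27, adjusted p = 0.015). In the other disulfide isomerase genes 2 of 10 rose (20%), near the share of all features, TXNDC11 (0.72, adjusted p = 0.00122) and TMX4 (0.28, adjusted p = 0.0346). Among the other translocon genes 3 of 6 rose, led by the signal recognition particle receptor subunits SRPRA (0.36, adjusted p = 0.00598) and SRPRB (0.32, adjusted p = 0.0193). In the UPR processing list, RTCB, the RNA ligase that joins XBP1 exons, rose (0.52, adjusted p = 0.00162), and CREB3L4 (−0.98, adjusted p = 0.00259) and the protease MBTPS2 (−0.34, adjusted p = 0.0306) fell among 4 tested.

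For ER exit and retrieval, 3 of 15 rose (20%), near the 22.1% of all tested features. They were led by the COPII coat genes SEC13 (0.70, adjusted p = 0.00201) and SAR1B (0.37, adjusted p = 0.00765). Of 13 ER calcium binding and prolyl isomerase genes 3 rose (23.1%), also near that share, led by RCN1 (0.50, adjusted p = 0.00247) and PPIB (0.41, adjusted p = 0.0059). Of 14 glycosylation and signal peptide removal genes, SPCS3 rose (0.27, adjusted p = 0.0342) and STT3A fell (−0.25, adjusted p = 0.0374), which is 7.14% in each direction.

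**Figure D5:**
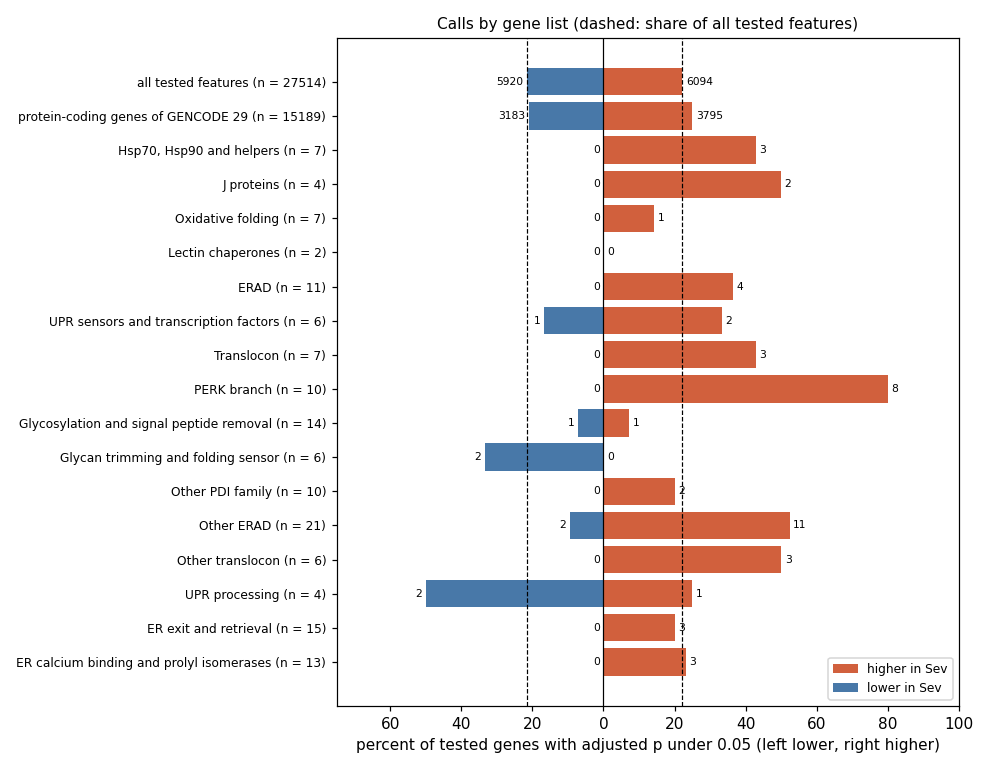
Percent of tested genes called higher (right) or lower (left) in Sev in each gene list, with the number of calls and dashed lines at the shares of all tested features, 22.1% and 21.5%. The list named PERK branch, chosen with earlier results known, has 8 of 10 genes higher, and the lectin chaperones have no call.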

How the data were processed

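Total RNA of untreated and Sev-treated U251 cells had been sequenced in 6 strand-specific libraries. The authors deposited raw counts per gene, and beside them FPKM for these same genes. The submitters' processing notes name bcl2fastq 2.19, featureCounts and the build hg18. The aligner, annotation, strand setting of the counting and the way the FPKM were made are not given in the sources used here. Positions and gene types came from GENCODE 29 on GRCh38, matched by identifier, and are not those of the labelled build. Promoters came from RefSeq on GRCh38.p14, and 45 of 52 windows of the ER genes ran into a GENCODE transcript of the gene in the same orientation.

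The counts were fitted with edgeR 4.0.16 under R 4.3.3 (filterByExpr, TMM, glmQLFit, glmQLFTest, group only). Standard errors were derived from the fold change and the F statistic. Adjusted p-values cover all 27514 features. CPM carry the TMM factors and no prior count. An exact permutation test of 3 against 3 cannot go under 0.1. The settings varied were the scaling (size factors of DESeq2, or library size), the test (the Wald test of DESeq2 1.42.0), the filter (none, or 10 counts as a minimum for each library), a block on replicate number, the leaving out of single libraries, and the unit (limma 3.58.1 on log2 FPKM with a pseudocount of 1 or 0.1, keeping features that reached 0.5 FPKM in 3 libraries, and also unfiltered with a pseudocount of 1).

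The ER genes, their role groups, the other lists and the motifs were chosen with earlier results of these data known. The 16 called genes and 11 UPR genes of interest were named with their values in every library, and from the other lists the PERK branch genes and up to 2 called genes with the smallest p in each direction. Of the 45 genes, 32 overlap another gene in the annotation, 12 of them one with counts over 10% of their own. The libraries of a group differed by far more than sampling noise (chi-square of 40.4 to 89.2 per gene over 13668 genes). The fits were tested on simulated data.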

Additional observations from a re-analysis of the deposited data

How the results depend on the processing

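Precision was limited by the 3 libraries a group, and by depth for genes of few counts such as DERL3 and CREB3L1. DESeq2's size factors left all 16 calls as they were. Library size shifted the log2 fold changes by −0.14 at the median, and the FPKM settings, which change unit, test and filter together, by −0.12 to −0.14. Library size gave 6 higher and 6 lower ER genes with a median of −0.057. The 3 FPKM settings gave 5 higher and 5 lower each, with medians of −0.045, −0.053 and −0.045 for log2(FPKM + 1), log2(FPKM + 0.1) and no filter, beside 16.4%, 16.2% and 9.64% of all features higher and 30.0%, 29.2% and 14.5% lower. The lower calls gained were among DNAJC10, EDEM2, EDEM3, HSPA13 and SEC62. For the other ER and UPR genes, higher calls came to 24, 23, 23 and 19, lower calls to 17, 19, 19 and 13 and medians to 0.00259, 0.00238, 0.00253 and 0.00106 for library size and the FPKM settings in the same order. Without a filter 9 ER genes were higher and 1 lower, beside 12.2% and 11.3% of all features. DESeq2's Wald test gave 2 lower, with EDEM3 added. Leaving out each library in turn gave 8 to 12 higher and 0 to 2 lower ER genes, beside 16.7% to 20% and 15.6% to 19.3% of all features, with 0 to 1 ER genes past the study's threshold (CREB3L2, without control library 1), and 4 to 8 lower among the other ER and UPR genes, with 4 without control library 3 or Sev library 1. The 16 called genes kept their direction in all 15 alternatives.

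The replicate numbers were not shown to pair the libraries, since those of the same number deviated from their group means with correlations of −0.0072, 0.0035 and 0.027. The replicate block left 10 higher and 1 lower ER genes, beside 19.0% and 18.2% of all features, without DERL1, DERL2, DNAJB9, HSP90B1 and SEC61B.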

Other observations

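Ratios of deposited counts within a library need no scaling between libraries, and 4 were computed after the values were seen. HSPA5 to HYOU1, the chaperone to its exchange factor, was 2.01 ± 0.164 in control and 3.63 ± 0.281 in Sev (SD, n = 3 each). HSPA5 to CALR was 0.553, 0.527 and 0.539 in control and 0.897, 0.809 and 1.12 in Sev. In these ratios every Sev library was above every control library. HSPA5 to CANX was 0.472 ± 0.0391 in control and 0.810 ± 0.0674 in Sev (SD, n = 3 each). ERN1 to XBP1 was 0.520, 0.527 and 0.657 in control and 0.669, 0.955 and 0.986 in Sev, apart by 0.657 against 0.669 at the closest libraries. Each gave a two-sided exact permutation p of 0.1, which is the smallest that 3 libraries against 3 allow. The pairs set a called gene over one without a call, so the ratios describe these values in another form and are no test of either gene.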
